A study of Homo sapiens with 12 samples.

Results

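The genes described here are 31 targets and partners of the serum response factor SRF and its actin-regulated coactivators, the myocardin-related transcription factors (MRTFs). They were taken by symbol from a deposited expression table of 56832 genes and listed for their known link to SRF and MRTF, with earlier results of these data in view. SRF is a transcription factor that binds the CArG box, a short sequence of A and T bases between a pair of C and a pair of G. The MRTFs, encoded by MKL1 and MKL2, bind monomeric actin through RPEL motifs, and when actin is built into filaments they are released, enter the nucleus and switch on genes of the actin cytoskeleton with SRF. The ternary complex factors are alternative partners of SRF that link it to the ERK pathway. In contractile tissue many of the same genes are smooth muscle markers, while in epithelial cells they build stress fibres and adhesions.

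RNA of DU145, an established human prostate carcinoma line, was sequenced in 12 libraries from 6 lines, all grown in RPMI medium with 10% fetal bovine serum. There were 3 RAC1 knockout clones: sgRAC1 clone 1, made with the guide sgRAC1_1, and sgRAC1 clones 2 and 3, made with the guide sgRAC1_2. The 3 RAC1-positive lines were sgNTC clone 1 and sgNTC clone 2, both made with the non-targeting guide sgNTC_1, and the parental DU145 cells. All clones were grown from single cells after transfection of guide and Cas9 complexes, so each is 1 isolate, and each line had 2 biological replicates, which the labels also give as batches 1 and 2. RAC1 encodes a GTPase that drives actin-based protrusion, and the comparison asks how the transcripts of the SRF and MRTF targets stood in the knockout clones.

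RAC1 itself averaged 46.2 TPM (a transcript abundance scaled to 1000000 per library) over the 3 knockout clones and 172 TPM over the 3 RAC1-positive lines. By an exact permutation test on the 6 line means (two-sided) p was 0.10, which no 3 against 3 design can go below, and limma across all genes gave an adjusted p of 0.0467. That call was lost with other scalings (0.0579 and 0.0607), with no level filter (0.172), with a pseudocount of 0.1 (0.0857), in batch 1 alone (0.128), and without any 1 line other than sgRAC1 clone 2 (0.103 to 0.307). It was also lost without 1 of 6 single libraries, replicate 1 of sgRAC1 clone 1, sgRAC1 clone 3, sgNTC clone 1 or parental cells, or replicate 2 of sgRAC1 clone 2 or sgNTC clone 2 (0.0503 to 0.202). RAC1 was lower in every knockout clone than in every RAC1-positive line. Its RNA remained at 36.5 to 59.2 TPM in the knockout libraries, and RNA values do not show whether RAC1 protein was absent. TPM keeps no depth, and the depth behind each value is unknown. The library of sgNTC clone 2 replicate 1 stood apart: it listed 13608 genes above 0, against 20470 to 25156 in the others, and its median correlation with the other libraries was 0.872, against 0.936 to 0.954. Some results that rest on it are given with and without it. The epithelial markers KRT8, KRT18, KRT19, EPCAM and CDH1 were all well above 0, and their sum was 372 to 752 TPM in knockout and 273 to 802 TPM in RAC1-positive libraries.

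CArG boxes close to a transcription start were searched for in the RefSeq promoter table (GRCh38.p14, 250 bases before to 50 bases after each annotated start, both strands). Of the 31 genes 28 had at least 1 window. A CArG box stood in 13 of the 65 windows of these genes and in 453 of all 34943 windows, which is 1.3%. By gene it was 11 of 28 (39.3%) against 437 of 27167 genes (1.61%). The genes were listed because SRF is known to act on them, so this difference in share follows from how they were chosen. Each match is a run of letters, not a measured binding site, and a window without one says nothing of boxes elsewhere. The stretches below are printed because they belong to genes that were expressed in DU145 and had a box, and the capitals mark the CArG box with its flanks in lower case, 5′ to 3′ on the strand named.
SRF (chr6:43171219-43171288, plus strand): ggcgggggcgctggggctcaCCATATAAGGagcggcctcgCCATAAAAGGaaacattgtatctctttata
ACTG1 (chr17:81512864-81512913, minus strand): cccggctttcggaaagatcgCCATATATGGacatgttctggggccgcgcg
CNN2 (chr19:1026499-1026548, plus strand): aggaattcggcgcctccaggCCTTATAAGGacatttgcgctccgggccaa
TPM4 (chr19:16067345-16067394, plus strand): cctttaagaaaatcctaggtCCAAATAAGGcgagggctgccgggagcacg
FLNA (chrX:154374699-154374748, minus strand): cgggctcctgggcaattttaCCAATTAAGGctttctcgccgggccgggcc
ACTN1 (chr14:68977708-68977757, minus strand): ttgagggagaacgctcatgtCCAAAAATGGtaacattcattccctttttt
FHL1 (chrX:136196901-136196950, plus strand): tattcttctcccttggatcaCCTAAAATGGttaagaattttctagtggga
FHL2, upstream start (chr2:105438585-105438634, minus strand): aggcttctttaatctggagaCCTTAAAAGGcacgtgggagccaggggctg
FHL2, downstream start (chr2:105399081-105399130, minus strand): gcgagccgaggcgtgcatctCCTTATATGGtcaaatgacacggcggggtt

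SRF had a pair of boxes that begin 30 and 10 bases before its annotated start. In ACTG1 and FLNA the box began 94 bases before the start, in CNN2 89, in TPM4 173 and in ACTN1 171. FHL2 had boxes at separate starts, of which the upstream one is shared by 2 windows that begin at different bases. ACTG2, TGFB1I1 and FILIP1L also had a box in a window but were hardly expressed. No box stood in the windows of PDLIM5, VCL, LIMA1 and NEXN, and TAGLN, MYL9 and SORBS3 were not analysed here.

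**Figure D1:**
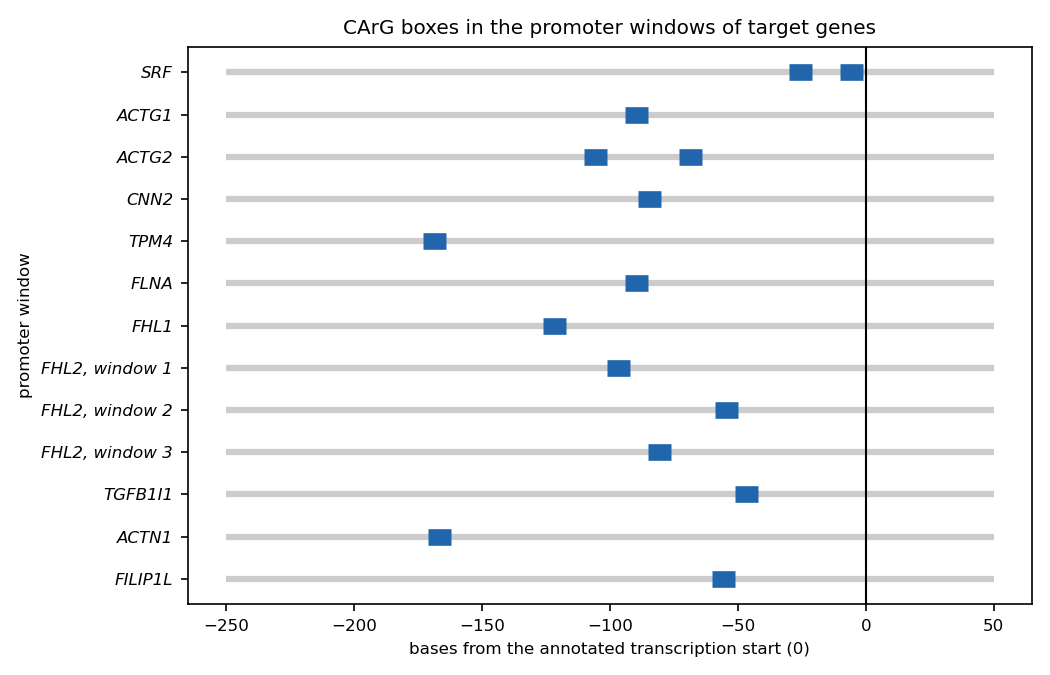
CArG boxes (blue) within the promoter windows (grey) of the target genes that held at least 1, with the distance from the annotated transcription start in bases on the x axis. The boxes of SRF lie closest to the start, at 30 and 10 bases before it, and those of TPM4 and ACTN1 lie farthest, at 173 and 171 bases.

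Of the 31 genes 26 reached a mean of 1 TPM in either genotype and entered the test. TPM2 did so only through the knockout clones. The other 5 are known by values only: ACTA2 (smooth muscle alpha actin) at up to 0.574 TPM in knockout and 0.175 TPM in RAC1-positive libraries, ACTG2 (smooth muscle gamma actin) at up to 1.20 and 1.34 TPM, CNN1 (calponin 1) at up to 0.498 and 0.0745 TPM, FILIP1L (a filamin-interacting protein) at up to 0.104 and 0.146 TPM, and TGFB1I1 (the adhesion adaptor Hic-5) at up to 1.60 and 1.19 TPM, in that order of genotypes. DU145 cells thus held little RNA of ACTA2, ACTG2 and CNN1, while TAGLN and MYL9 were above the filter. The levels of the others spanned a wide range, with the cytoplasmic gamma actin gene ACTG1 highest at 3880.3 ± 190.0 TPM in knockout clones and 3197 ± 193 TPM in RAC1-positive lines (SD, n = 3 lines each). TAGLN2 came next, at 536 ± 44.4 TPM and 487 ± 20.8 TPM.

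The listed genes were mostly higher in the knockout clones, by modest amounts. On the log2(TPM + 1) scale 22 of 26 (84.6%) had a knockout mean above the RAC1-positive mean, against 53.3% of all genes, and the median difference was 0.28, against 0.02 over all 17367 genes tested. Without TPM2 it was 21 of 25, again with a median of 0.28. Without sgNTC clone 2 replicate 1 the median was 0.23, against 0.00 over all genes. In 11 of 26 (42.3%) the means of all 3 knockout clones lay above those of all 3 RAC1-positive lines, against 2078 of all 17367 genes (12%). In 1 of 26 (3.85%), FHL1, they lay below, against 8.52% of all genes. With the line as the replicate, no single gene of the list passed limma at an adjusted p of 0.05, and the lowest adjusted p was 0.143. Over all genes only RAC1 passed with all 12 libraries, which is 0.00576% of genes. At an unadjusted p under 0.05 in limma 9 of 26 (34.6%) were higher and 1 (3.85%) was lower, against 7.53% and 5.46% of all genes. Without sgNTC clone 2 replicate 1, 14 of 17374 genes passed by line as higher at an adjusted p of 0.05 and 8 as lower. Of the listed genes 0 were among them. In bulk RNA, fewer cells that express a gene and less RNA per cell cannot be told apart.

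**Figure D2:**
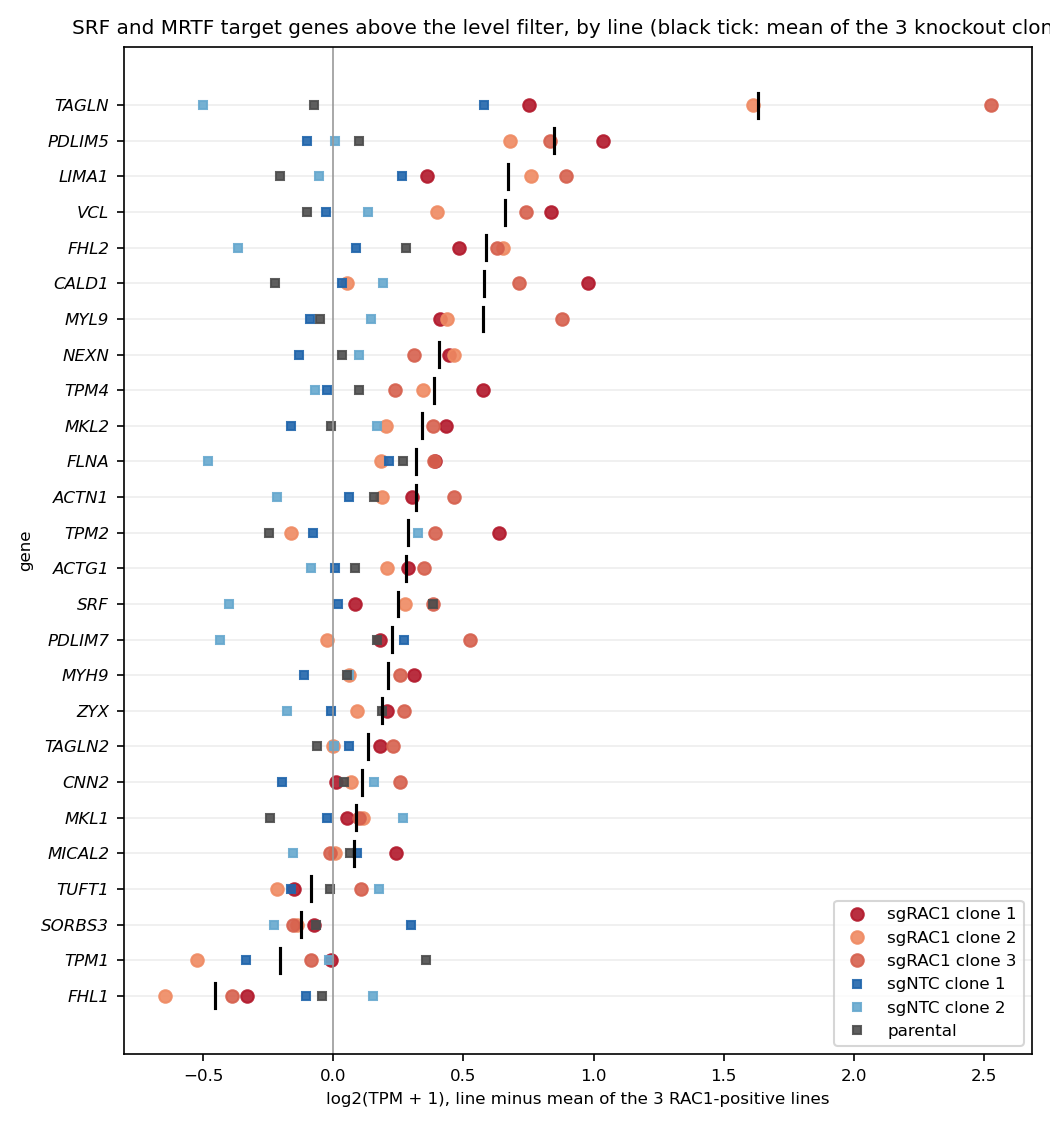
Difference of each line from the mean of the 3 RAC1-positive lines, on the log2(TPM + 1) scale, for the 26 SRF and MRTF target genes above the level filter; circles are knockout clones, squares RAC1-positive lines and black ticks the knockout mean. The knockout mean lies to the right of 0 in 22 of 26 genes, and TAGLN has the widest spread of clones.

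When the 12 libraries were fitted with the line as a random block, 3 of 26 genes (11.5%) passed limma as higher in knockout clones, against 1.69% of all genes, and 0 passed as lower, against 0.432%. These were PDLIM5 and VCL, both with an adjusted p of 0.0133 in limma, and LIMA1, with an adjusted p of 0.0464. The estimated correlation within a line was -0.0299 in that fit, so libraries of 1 line were treated as nearly independent. With the replicate number as a further block ACTG1 also passed, with an adjusted p of 0.0477 in limma. In the authors' deposited table, which gives a DESeq2 comparison whose treatment of replicates is not stated, 11 of 28 listed genes (39.3%) were higher at an adjusted p of 0.05, against 5.68% of its 15140 genes, and 1 (3.57%) was lower, against 4.06%. The higher ones were PDLIM5, VCL, ACTG1, LIMA1, NEXN, TAGLN, MYL9, FHL2, TPM4, CALD1 and MKL2, and the lower one was FHL1. The 3 sets of calls come from the same 12 libraries and are not independent of each other.

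None of the genes for the factors themselves passed limma between the genotypes. SRF was at 2.39 and 3.46 TPM in replicates 1 and 2 of sgRAC1 clone 1 (lines are given in that order of replicates throughout), 3.27 and 3.61 TPM in clone 2, and 2.48 and 5.59 TPM in clone 3. It was at 2.15 and 3.38 TPM in sgNTC clone 1, 1.22 and 2.48 TPM in sgNTC clone 2, and 4.24 and 3.38 TPM in parental cells. The genotypes overlapped, and the difference of 0.25 (SE 0.24) did not pass limma (adjusted p = 0.688). Without sgNTC clone 2 replicate 1 it was 0.14. MKL1, which encodes MRTF-A, was at 0.908 to 1.96 TPM (median 1.49) in knockout and 0.804 to 2.35 TPM (median 1.24) in RAC1-positive libraries, within the range of each other, with a difference of 0.09 (SE 0.23, limma adjusted p = 0.890). MKL2, which encodes MRTF-B, was at 3.77 to 5.59 TPM (median 5.37) in knockout and 3.23 to 5.24 TPM (median 3.50) in RAC1-positive libraries. All 3 knockout clones had a higher MKL2 mean than every RAC1-positive line, but the difference of 0.34 (SE 0.17) did not pass limma (adjusted p = 0.435). The authors' deposited table lists MKL2 as higher, with a log2 fold change of 0.45.

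Among the actin genes ACTG1 was at 3543 to 4263 TPM (median 3809) in knockout libraries, against 2905 to 3688 TPM (median 3100.3) in RAC1-positive libraries. The library ranges overlapped, through parental replicate 2, while the line means did not. The difference was 0.28 (SE 0.07, limma adjusted p = 0.209). ACTG1 and the beta actin gene ACTB encode near-identical proteins, but the identity of their transcripts was not computed. How the authors' counting treated any reads that fit both genes is unknown. ACTB, also a known SRF target but not on the list and named here after its values were seen, stood the other way, at 2005 ± 269 TPM in knockout clones and 3972 ± 1789 TPM in RAC1-positive lines (SD, n = 3 each). Its difference was -0.88 (SE 0.31) and did not pass limma (adjusted p = 0.309). Every knockout clone had a lower ACTB mean (1839 to 2315 TPM) than every RAC1-positive line (2412 to 5925 TPM, highest in parental cells). The authors' deposited table lists ACTB as lower, with a log2 fold change of -1.01. Across all lines ACTB was higher in batch 2 than in batch 1, by 0.83 (limma adjusted p = 0.0779).

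Among genes of adhesions, actin crosslinkers and LIM domain proteins, 9 of the 11 tested were higher by mean, with a median difference of 0.32. PDLIM5, a PDZ and LIM domain protein that binds alpha-actinin, was at 63.5 and 49.7 TPM in the libraries of sgRAC1 clone 1, 46.1 and 41.3 TPM in those of clone 2 and 42.0 and 56.3 TPM in those of clone 3. In RAC1-positive cells it was at 28.8 and 21.7 TPM in sgNTC clone 1, 34.6 and 21.0 TPM in sgNTC clone 2, and 24.6 and 33.7 TPM in the parental line. Every knockout library lay above every RAC1-positive library. The means were 49.8 ± 6.45 TPM and 27.4 ± 2.00 TPM (SD, n = 3 lines each), a ratio of 1.82 and a log2 difference of 0.85 (SE 0.13, limma adjusted p = 0.143 by line).

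VCL encodes vinculin, which ties adhesion receptors to actin filaments. It was at 96.4 and 79.6 TPM in sgRAC1 clone 1, 65.6 and 63.2 TPM in clone 2 and 81.0 and 82.8 TPM in clone 3, against 49.96 and 45.4 TPM in sgNTC clone 1, 61.4 and 46.4 TPM in sgNTC clone 2, and 45.9 and 44.7 TPM in parental cells. Here too the libraries of the genotypes did not overlap, although sgNTC clone 2 replicate 1 lay close below sgRAC1 clone 2. The means were 78.1 ± 12.3 TPM and 49.0 ± 4.47 TPM, with a log2 difference of 0.66 (SE 0.14, limma adjusted p = 0.176 by line). PDLIM5 and VCL were the only listed genes with all 6 knockout libraries above all 6 RAC1-positive ones, a pattern found in 2.14% of all genes.

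LIMA1 encodes EPLIN, which bundles and stabilises actin filaments. It was at 115 to 175 TPM (median 156) in knockout libraries, against 70.9 to 130.5 TPM (median 86.6) in RAC1-positive libraries. Libraries of sgRAC1 clone 1 overlapped those of sgNTC clone 1, and the line means stayed apart. The log2 difference was 0.67 (SE 0.18, limma adjusted p = 0.221 by line).

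NEXN encodes nexilin, an actin filament binding protein, and was at 26.4 to 36.4 TPM (median 31.6) in knockout and 18.6 to 31.2 TPM (median 21.7) in RAC1-positive libraries. FHL2, a LIM-only transcriptional cofactor, was at 19.3 to 26.9 TPM (median 21.1) in knockout and 10.8 to 20.6 TPM (median 14.9) in RAC1-positive libraries. Libraries overlapped through parental replicate 2 in both genes, and for NEXN also through sgNTC clone 2 replicate 1, while every knockout clone had a higher mean than every RAC1-positive line. The log2 differences were 0.41 (SE 0.11) for NEXN and 0.59 (SE 0.18) for FHL2, with limma adjusted p of 0.242 and 0.266. ACTN1, the crosslinker alpha-actinin 1, had separate line means as well, at 39.2 ± 4.14 TPM in knockout clones and 31.2 ± 4.17 TPM in RAC1-positive lines, a log2 difference of 0.32 (SE 0.14, limma adjusted p = 0.394).

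FHL1, the LIM-only paralog of FHL2, stood the other way. It was at 3.14 to 5.34 TPM (median 4.33) in knockout libraries and 5.38 to 8.53 TPM (median 5.86) in RAC1-positive libraries. No library of the genotypes overlapped, a pattern in this direction in 0.714% of all genes, but the gap between the nearest libraries was small. The log2 difference was -0.46 (SE 0.17, limma adjusted p = 0.319), and the authors' deposited table lists a log2 fold change of -0.51.

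The remaining genes of this class overlapped by line. FLNA, the crosslinker filamin A, was at 3.74 ± 0.38 TPM in knockout clones and 3.06 ± 0.74 TPM in RAC1-positive lines. ZYX, the focal adhesion protein zyxin, was at 13.8 ± 0.93 TPM and 12.1 ± 1.65 TPM, in that order. PDLIM7, a PDZ and LIM domain protein, was at 3.15 ± 0.77 TPM in knockout clones and 2.59 ± 0.87 TPM in RAC1-positive lines. SORBS3, the vinculin-binding adaptor vinexin, was at 1.13 ± 0.06 TPM and 1.34 ± 0.44 TPM. The RAC1-positive libraries of FLNA included 0.483 TPM in sgNTC clone 2 replicate 1, and its log2 difference was 0.32 with that library and 0.03 without it. None of these 4 genes passed limma.

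**Figure D3:**
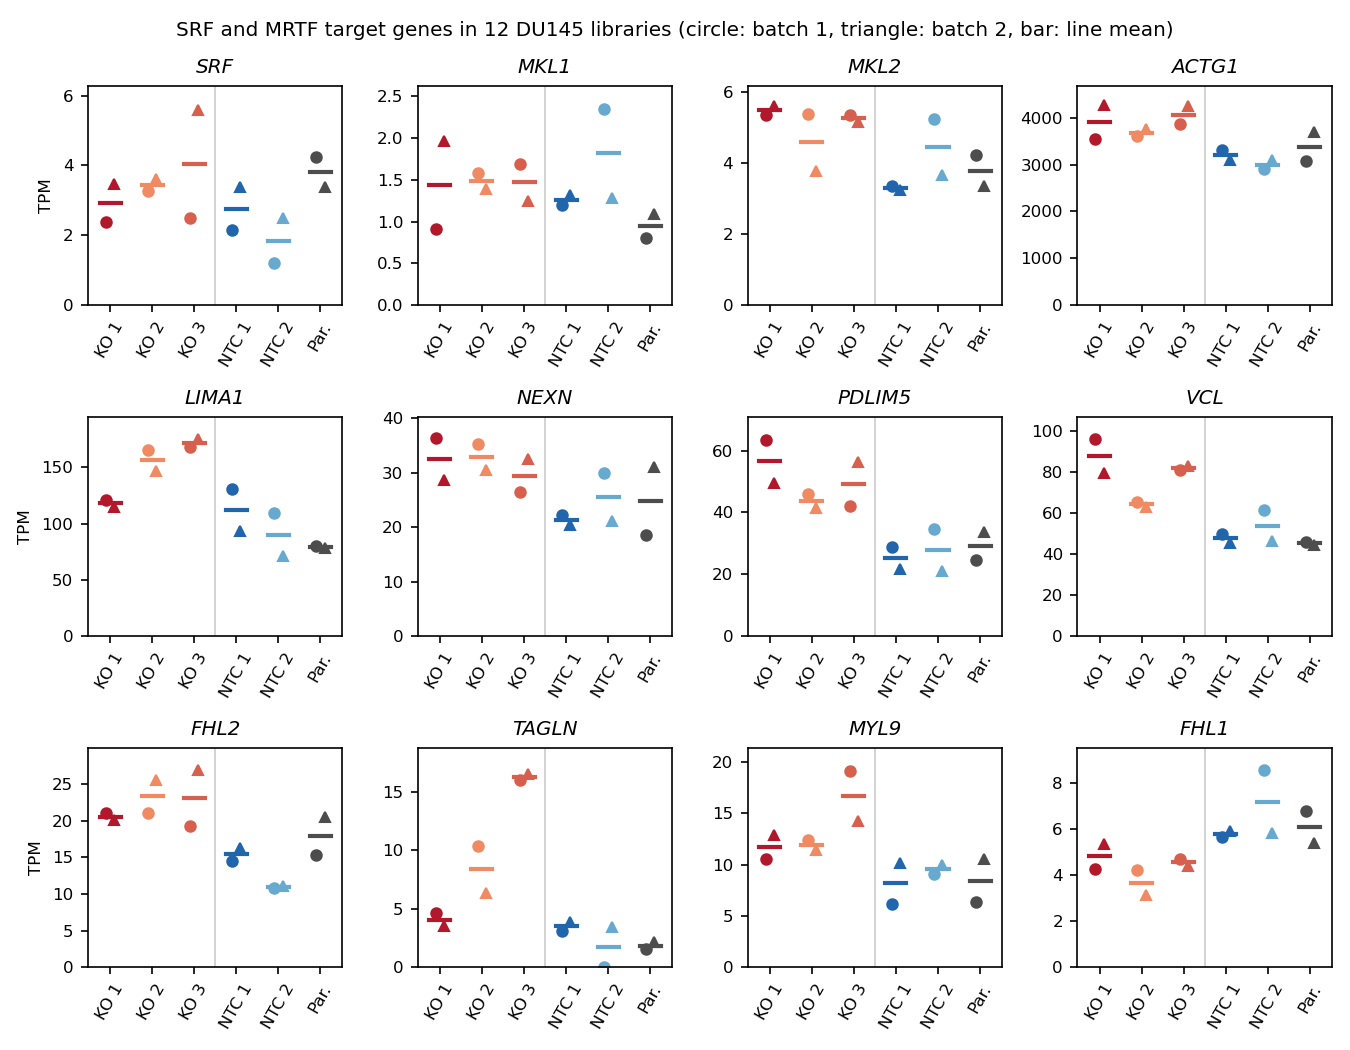
TPM of SRF and MRTF target genes in each of the 12 libraries, with circles for batch 1, triangles for batch 2 and bars for line means; knockout clones (KO) stand left of the RAC1-positive lines (NTC, sgNTC clones; Par., parental), and each panel has its own linear axis from 0. PDLIM5 and VCL are higher in every knockout library, FHL1 is lower in every one, and SRF and MKL1 overlap.

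Among myosin, tropomyosin and calponin family genes 8 of the 9 tested were higher by mean, with a median difference of 0.29. Without TPM2, which passed the filter through the knockout clones alone, it was 7 of 8 with a median of 0.30. TAGLN, the actin-binding protein transgelin (SM22), was at 4.66 and 3.49 TPM in sgRAC1 clone 1, 10.4 and 6.36 TPM in clone 2 and 16.0 and 16.5 TPM in clone 3. It was at 3.07 and 3.90 TPM in sgNTC clone 1, listed at 0 and at 3.46 TPM in sgNTC clone 2, and at 1.57 and 2.14 TPM in parental cells. The clones differed among themselves more than for any other listed gene, and sgRAC1 clone 1 overlapped the RAC1-positive libraries. The log2 difference was 1.63 (SE 0.47, limma adjusted p = 0.250), the widest on the list, and 1.27 without sgNTC clone 2 replicate 1. The authors' deposited table lists a log2 fold change of 1.84 for TAGLN.

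MYL9, a regulatory light chain of myosin II, was at 10.5 to 19.1 TPM (median 12.6) in knockout libraries, against 6.19 to 10.5 TPM (median 9.53) in RAC1-positive libraries. The highest RAC1-positive value, in parental replicate 2, was level with the lowest knockout value, and the log2 difference was 0.57 (SE 0.17, limma adjusted p = 0.255). TPM4, a tropomyosin that coats actin filaments, was at 53.1 ± 5.95 TPM in knockout clones and 40.1 ± 2.52 TPM in RAC1-positive lines (log2 difference 0.38, SE 0.12, limma adjusted p = 0.269). CALD1, which encodes the actomyosin inhibitor caldesmon, was at 6.87 ± 2.43 TPM and 4.29 ± 0.98 TPM (log2 difference 0.58, SE 0.26, limma adjusted p = 0.411). Its line means overlapped, at 4.26 TPM in sgRAC1 clone 2 and 5.30 TPM in sgNTC clone 2. Without sgNTC clone 2 replicate 1 (7.79 TPM) that line was at 2.81 TPM, the line means no longer overlapped, and the log2 difference was 0.78.

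The other genes of this class had smaller differences that did not pass. The heavy chain gene MYH9 was at 33.2 ± 3.19 TPM in knockout clones and 28.5 ± 2.07 TPM in RAC1-positive lines. TAGLN2, CNN2 and TPM2 had log2 differences of 0.13, 0.11 and 0.29, and TPM1 had one of -0.21. The tropomyosin genes thus did not all lie on one side by mean. The differences of TPM1 (SE 0.22) and TPM2 (SE 0.30) were smaller than their SE. Of the remaining targets, MICAL2, an actin-oxidising enzyme, was at 3.33 ± 0.43 TPM in knockout clones and 3.09 ± 0.37 TPM in RAC1-positive lines, and TUFT1, which encodes tuftelin, at 72.9 ± 9.17 TPM and 77.3 ± 9.09 TPM.

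Set against the mean of the RAC1-positive lines, the 26 genes had a median of 0.31 in sgRAC1 clone 1, of 0.15 in clone 2 and of 0.37 in clone 3. For the RAC1-positive lines themselves it was -0.02 in sgNTC clone 1, -0.01 in sgNTC clone 2 and 0.04 in parental cells. Over all genes tested the medians were 0.02, 0.02 and 0.03 in clones 1, 2 and 3. They were -0.02 in sgNTC clone 1, -0.02 in sgNTC clone 2 and 0.03 in parental cells. Of the 26 genes 22, 19 and 22 lay above the mean of the RAC1-positive lines in clones 1, 2 and 3. The share of all genes above it was not counted by clone. Among the 3 clones, clone 1 had the highest level for 12 genes, clone 3 for 11 and clone 2 for 3. In clone 1 CALD1 (0.98) and PDLIM5 (1.03) stood high, and in clone 3 TAGLN (2.53), LIMA1 (0.90) and MYL9 (0.88).

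Each clone was also tested against the RAC1-positive lines in limma, where the p reflects how far the 2 libraries of each line lay apart and the contrasts share their controls. In clone 1 VCL passed as higher (0.84, SE 0.14, adjusted p = 0.0465), 1 of 26 genes (3.85%) against 0.432% of all genes, and none passed as lower, against 0.0518%. In clone 3 VCL passed again (0.74, SE 0.14, adjusted p = 0.0481), 1 of 26 against 0.927%, and none was lower, against 0.155%. In clone 2 no listed gene passed limma, against 0.167% of all genes higher and 0.0288% lower. An unadjusted p under 0.05 was found for 6, 7 and 10 of the 26 genes in clones 1, 2 and 3, against 1580, 1287 and 2151 of all 17367 genes. The VCL calls in clones 1 and 3 held without either library of sgNTC clone 2 and were lost when any other single library was left out, which leaves a line with 1 library that is assumed to vary like the others. They were also lost with a pseudocount of 0.1.

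The guides and the controls gave no call on the list. For the sgRAC1_2 clones 2 and 3 against the sgRAC1_1 clone 1, 0 of 26 genes passed limma, against 0.0230% of all genes higher and 0.0633% lower. An unadjusted p under 0.05 was found for 2 of them, against 685 of all genes. The guide sgRAC1_1 had only 1 clone, so guide and clone cannot be told apart. For the sgNTC clones against parental cells 0 of 26 passed limma, against 0% of all genes higher and 0.00576% lower, with 1 at an unadjusted p under 0.05 against 680 of all genes. The median over the 26 genes was -0.06 in both contrasts.

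The median difference between knockout and RAC1-positive libraries was 0.26 in batch 1 and 0.31 in batch 2, and 25 of 26 genes had the same sign in both, against 10203 of all 17367 genes. The batches hold the same 6 lines and are not independent. MKL1 was the exception, at -0.0019 in batch 1 and 0.18 in batch 2. PDLIM5 was at 0.75 and 0.94, VCL at 0.61 and 0.70, and LIMA1 at 0.51 and 0.83 in batches 1 and 2. ACTG1 was at 0.25 and 0.31, and FHL1 at -0.55 and -0.36. TAGLN was at 2.24 in batch 1, which holds the sgNTC clone 2 library that lists it at 0, and at 1.02 in batch 2. In 17 of the 26 genes these log2 differences stood over 1.5 times apart between the batches. Differences near 0 inflate that ratio, and its share over all genes was not counted. MYL9 was at 0.85 and 0.30, CALD1 at 0.34 and 0.82, FLNA at 0.58 and 0.06, and CNN2 at 0.22 and 0.00059. No listed gene differed in this effect between the batches by limma, 0 also at an unadjusted p under 0.05, against 757 of all genes. For batch 2 against batch 1 across all lines 0 of 26 genes passed limma, against 0.0115% of all genes, with 1 at an unadjusted p under 0.05 against 1421 of all genes.

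**Figure D4:**
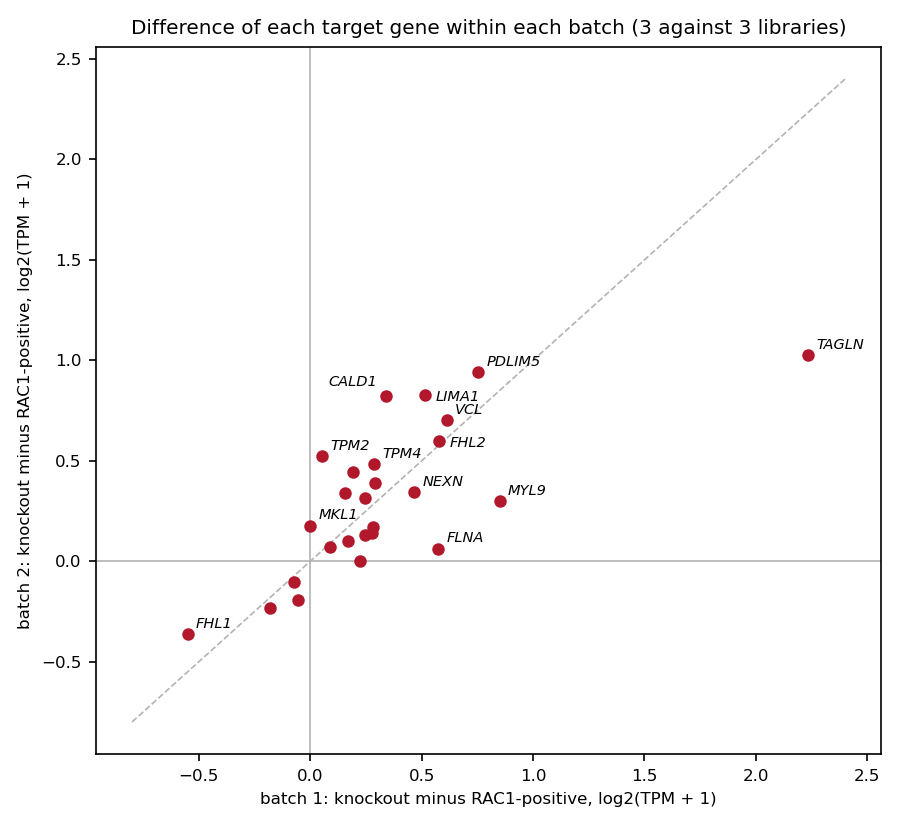
Log2(TPM + 1) difference of knockout minus RAC1-positive libraries for each of 26 SRF and MRTF target genes, in batch 1 (x axis) and batch 2 (y axis), with 3 libraries a genotype in each batch; the dashed line marks equal values. Most points lie in the upper right quadrant, FHL1 lies in the lower left, and TAGLN lies far below the line at 2.24 and 1.02.

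Other genes around the pathway were counted from lists of their own, beside 53.3% of all genes above 0 and 1.69% of all genes called higher with the random block. Of the 21 tested regulators of the actin pool 14 were higher and 7 lower by mean, with a median of 0.06. By line 0 passed limma, and with the line and the replicate number as blocks 1, CAPG, passed as higher. With the line alone as a random block 3 passed as higher in limma. These were CAPG, which caps filament ends (93.0 ± 39.0 TPM in knockout clones and 36.1 ± 6.43 TPM in RAC1-positive lines, adjusted p = 0.0185 in that limma fit), TMSB4X, the monomer-binding thymosin beta 4 (1720.5 ± 208 TPM and 1123 ± 297 TPM, adjusted p = 0.0387), and DSTN, the depolymerising factor destrin (373 ± 52.3 TPM and 253 ± 34.98 TPM, adjusted p = 0.0444). Of 16 tested paralogs of the listed genes 9 were higher and 7 lower (median 0.07), and the myosin light chain genes MYL12A (1422 ± 95.7 TPM in knockout clones and 986 ± 61.3 TPM in RAC1-positive lines) and MYL6 (863 ± 79.2 TPM and 601 ± 36.7 TPM) passed limma with the random block, with adjusted p of 0.0042 and 0.0055.

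The ternary complex factor arm was counted in the same way. Of its 9 tested genes 4 were higher and 5 lower by mean, with a median of -0.03, and none passed limma by either fit or at an unadjusted p under 0.05. The factor gene ELK3 was at 11.9 ± 2.37 TPM in knockout clones and 14.3 ± 2.42 TPM in RAC1-positive lines, and the early response gene IER3 at 13.4 ± 0.69 TPM and 11.4 ± 3.53 TPM. Of 8 genes for MRTF partners and other RPEL proteins 4 were tested, with a median of 0.04 and no call. ARHGAP12 and PHACTR2 had the smallest p, with log2 differences of 0.22 and 0.07. Whether these lists differ from the SRF and MRTF targets was not tested.

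Markers of other cells were near 0. None of 6 smooth muscle markers reached the level filter, their sum was 0.440 to 0.796 TPM in knockout and 0 to 1.23 TPM in RAC1-positive libraries, and MYOCD, DES and LMOD1 were at or near 0. None of 6 fibroblast markers reached it, with sums of 0.0841 to 0.429 TPM in knockout and 0.0427 to 0.751 TPM in RAC1-positive libraries. All 5 epithelial markers were above the filter, and 4 of 5 were higher in knockout clones by mean. Their median difference was 0.48, above the 0.28 of the SRF and MRTF targets. It was 0.52, 0.28 and 0.63 in clones 1, 2 and 3. For the sgNTC clones against parental cells their median was -0.40, so lines that keep RAC1 also differed in these markers. In that contrast 2 of 5 had an unadjusted p under 0.05 in limma, against 680 of all 17367 genes. For batch 2 against batch 1 their median was 0.25. EPCAM (43.8 ± 6.72 TPM in knockout clones and 24.2 ± 2.10 TPM in RAC1-positive lines) and CDH1 (13.5 ± 4.13 TPM and 3.98 ± 1.51 TPM) passed limma with the random block, with adjusted p of 0.0184 and 0.0117. The part of these in the values of the SRF and MRTF targets was not tested.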

How the data were processed

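RNA-seq of 12 DU145 libraries was aligned with STAR 2.6.1d to GRCh38, per the submitters' processing notes, which also name bcl2fastq and DESeq2. The sources used here do not give the counting tool, its strand setting or the annotation. The authors deposited TPM per gene and library and, for 15140 genes, the authors' own DESeq2 columns, per the file headers: a mean signal (normalized counts), a log2 fold change, a Wald score, p-value and adjusted p-value.

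A gene was kept where its mean reached 1 TPM in 1 genotype or both (17367 genes). The main test was limma 3.58.1 in R 4.3.3 on log2(TPM + 1), with 1 mean per line, 3 knockout clones against 3 RAC1-positive lines, a variance trend on mean expression, and a Benjamini-Hochberg threshold of 0.05 over all genes kept. TPM + 1 understates changes of genes near 1 TPM. Clone, guide and control contrasts used the 12 libraries with a mean per line. Batches were compared on the differences of the 2 libraries of each line. Promoters were searched with Python 3.11.15.

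The listed genes, the other gene lists and the tests were chosen with earlier results of these data known. All 31 genes are named, with the library values or ranges of SRF, MKL1, MKL2 and the 8 smallest p by line. From each other list up to 3 genes are named, those called in the main test, else with the random block by smallest p, else the 2 with the smallest p. The result of 1 list is not reported here. ACTB was named after its values were seen.

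Replicate numbers are batches per the labels, which pairs the samples. Same-numbered deviations of 15 pairs of lines correlated at -0.13 to 0.30 (median 0.026). None of 66 library pairs was identical. The limma steps were run on simulated data with no spread between lines. The simulation thus cannot show how the fits fare when clones differ. Alternatives covered the random block, the replicate block, scaling, filter, pseudocount, single batches, and each line or library left out.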

Additional observations from a re-analysis of the deposited data

Results flagged for a closer look

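Among 58 groups of 6 libraries (a gene in a genotype), 4 had 1 library set apart from the other 5 by a gap, taken on the log2(TPM + 1) scale as a share of the range of the group, above the limit of Dixon's test, which about 1 in 20 groups passes by chance. For MKL2 sgRAC1 clone 2 replicate 2 was low, at 3.77 TPM against 5.15 to 5.59 TPM in the other knockout libraries (gap 0.783 of the range). For TGFB1I1 sgRAC1 clone 3 replicate 2 was high, at 1.60 TPM against 0.318 to 0.562 TPM (gap 0.749). In the RAC1-positive lines sgNTC clone 2 replicate 1, the library with the fewest genes above 0, was high for VCL, at 61.4 TPM against 44.7 to 49.96 TPM (gap 0.649), and low for FLNA, at 0.483 TPM against 2.84 to 3.99 TPM (gap 0.786).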

How the results depend on the processing

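The count of listed genes that passed between knockout and RAC1-positive lines depended on the unit of replication. It was 0 with the line as the replicate, 3 with the line as a random block, 4 with the replicate block added, and 3 with the random block without sgNTC clone 2 replicate 1, which was chosen after seeing the data. There VCL, PDLIM5 and LIMA1 had limma adjusted p of 0.00445, 0.00710 and 0.0346. By line without that library the count was 0, with a lowest adjusted p of 0.0668 for PDLIM5. Leaving out TPM2, also chosen after seeing the data, kept the count at 0 and the median at 0.28. The median difference of 0.28 was 0.16 with a pseudocount of 5. In clone 3 the count of 1 became 2 with median-of-ratios scaling, 0 with no level filter, 3 with a filter of 5 TPM, 0 with a pseudocount of 0.1 and 2 with one of 5, and it ran from 0 to 3 with 1 library left out, at 3 without either library of sgNTC clone 2. In clone 1 it was 0 with a pseudocount of 0.1 and 0 to 2 with 1 library left out, at 2 without sgNTC clone 2 replicate 1. In clone 2 it was 0 to 1, with TAGLN called without sgNTC clone 2 replicate 2. The cause was not tested.

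Single genes kept their direction and side of the threshold in 730 of the recomputed values, and 10 others passed newly. MKL1 was at -0.0019 in batch 1 alone. With 1 line or library left out, MKL1 ran from -0.033 to 0.22, MICAL2 from -0.0030 to 0.14, SORBS3 from -0.24 to 0.025 and TUFT1 from -0.18 to 0.00059. None of these passed in any fit. TPM keeps no depth, so precision at low levels is unknown.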
